A study of Mus musculus with 23 samples.

Results

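In the mouse colon, 10 genes used as markers of macrophages were followed. They were taken by symbol from the 55449 genes of the count table: Csf1r, Adgre1, Cd68, Lyz2, C1qa, C1qb, C1qc, Mrc1, Cx3cr1 and Arg1. All 10 were found once and passed the filter on low counts in each comparison. Between normal colon at 2 weeks and non-tumor tissues at 12 weeks, 9 of them rose and Arg1 did not. Between non-tumor tissues and tumors, Arg1 rose in both arms and Cd68 in 1 of them. None of the 10 passed the test between mice colonized with BF BSHhigh and BF BSHlow.

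Most colon macrophages are renewed from blood monocytes, and they depend on the growth factors CSF1 and IL-34, which both act through the receptor CSF1R. In the healthy gut they clear dying cells and bacteria, and in tumors they often take on other states. Arginase 1, the product of Arg1, splits arginine into ornithine and urea and is widely used in mice as a marker of alternatively activated and tumor-associated macrophages, although other cells can make it.

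Bulk RNA-seq of 23 libraries was analysed. The Cdx2Apcf/w mice were male C57BL/6 and 6 to 8 weeks old at the start, before colonization. They had 1 floxed Apc allele and Cre driven by the Cdx2 promoter. That promoter acts in the intestinal epithelium, and the paper describes the Apc mutation as specific to the colon. Whether Apc was also recombined in macrophages was not tested. All groups shared a 60% HFD and an antibiotic course before colonization with B. fragilis 638R, which was either BF BSHlow (bsh-), with little bile salt hydrolase (BSH) activity, or BF BSHhigh (bsh+), which carries an inserted bsh gene of another B. fragilis strain. Normal colon was taken after 2 weeks (4 libraries of each strain), and non-tumor tissues (4 of each) and tumors (4 of BF BSHlow and 3 of BF BSHhigh) after 12 weeks. No group without either strain or on another diet was analysed here. The labels do not tie tissues to mice, so p-values describe the spread between these libraries, which may be technical. The BF BSHhigh tumors are called a, b and c because their columns carry no replicate numbers.

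Total expected counts were 12401388 to 17903008 per library. CPM values stand for counts brought to a common library size with TMM (trimmed mean of M-values) factors, and genes are compared with each other only as CPM per kb of exon. A gene was called when its Benjamini-Hochberg adjusted p over all genes tested was below 0.05 and its absolute log2 fold change was above 1, in the quasi-likelihood test of edgeR. Fold changes below are on the log2 scale. Epcam, an epithelial marker, was 812 to 2030 CPM in the 23 libraries. Apc was 8.66 to 12.1 CPM in the BF BSHlow tumors, 12.4 to 28.3 CPM in the BF BSHhigh tumors and 86.5 to 189 CPM in the 8 non-tumor libraries. Between the tumors of the strains Apc had 1.04 (SE 0.27, adjusted p = 0.14 in edgeR). It was not called and did not overlap, beside 8.30% of all genes in that direction. Its part in other differences between these tumors was not tested. Replicate 4 of the BF BSHlow non-tumor tissues stood apart, with the lowest level of 9 of the 10 genes and the highest of Arg1 in its group, and the lowest sums of smooth muscle (1590 CPM), fibroblast (339 CPM) and B cell markers (12 CPM).

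Promoters were looked up for the genes that moved together. The 250 bases before the start, from RefSeq on GRCm38.p6, were searched for 6 of the genes: Cd68, Lyz2, C1qb, C1qc, Mrc1 and Cx3cr1. Promoters of C1qa, Adgre1 and Arg1 were not at hand. Csf1r was left out of the search, so the shares below do not cover it. The motif AGGAAGT, of the kind bound by ETS factors such as the myeloid regulator PU.1, was searched on both strands and was chosen after the sequences were seen. It was in 4 of the 6 (Lyz2, C1qb, C1qc and Mrc1) and in 7.69% of 32851 promoters of the same length. The shorter GAGGAA, which can overlap it and does so in C1qc, was in 4 of the 6 (Cd68, C1qb, C1qc and Mrc1) and in 23.3% of all. The 4 promoters with AGGAAGT are given in the direction of the gene, since they belong to neighbouring C1q genes with nearly one pattern, to the most abundant of the genes and to the one closest to no difference in tumors. Capitals mark the motif on either strand.
C1qb (chr4:136886201-136886450, minus strand): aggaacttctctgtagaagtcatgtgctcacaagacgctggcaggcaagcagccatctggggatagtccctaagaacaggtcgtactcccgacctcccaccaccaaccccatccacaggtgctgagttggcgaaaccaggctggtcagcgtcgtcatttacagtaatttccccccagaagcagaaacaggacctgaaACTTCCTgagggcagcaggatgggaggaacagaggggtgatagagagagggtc
C1qc (chr4:136892915-136893164, minus strand): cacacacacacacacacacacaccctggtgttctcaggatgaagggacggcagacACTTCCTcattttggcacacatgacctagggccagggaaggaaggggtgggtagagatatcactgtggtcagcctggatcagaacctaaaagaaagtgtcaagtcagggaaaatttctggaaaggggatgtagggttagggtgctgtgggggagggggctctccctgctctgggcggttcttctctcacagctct
Lyz2 (chr10:117282273-117282522, minus strand): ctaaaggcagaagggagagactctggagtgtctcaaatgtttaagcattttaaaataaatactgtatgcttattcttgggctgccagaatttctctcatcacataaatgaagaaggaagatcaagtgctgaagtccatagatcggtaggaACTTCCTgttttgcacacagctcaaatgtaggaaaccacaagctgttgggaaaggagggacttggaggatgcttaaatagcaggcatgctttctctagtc
Mrc1 (chr2:14229164-14229413, plus strand): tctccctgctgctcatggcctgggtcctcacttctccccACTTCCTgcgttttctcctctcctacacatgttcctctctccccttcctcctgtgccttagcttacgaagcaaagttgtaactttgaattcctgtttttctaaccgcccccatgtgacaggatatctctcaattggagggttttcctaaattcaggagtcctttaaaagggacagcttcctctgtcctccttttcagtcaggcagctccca
AGGAAGT lay 53 bases before the start in C1qb, 195 in C1qc, 100 in Lyz2 and 211 in Mrc1, each time on the other strand. These are matches of letters and not measured binding. Because AGGAAGT was chosen from these promoters, its share among them does not test for an excess over all promoters.

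Csf1r, the receptor for CSF1 and IL-34, showed the pattern that most of the genes followed. In normal colon at 2 weeks it was 5.09, 2.56, 6.41 and 5.36 CPM with BF BSHlow and 3.01, 7.82, 6.0 and 3.04 CPM with BF BSHhigh. In non-tumor tissues at 12 weeks it was 39.8, 45.2, 36.6 and 11.1 CPM with BF BSHlow and 36.2, 26.6, 39.5 and 42.2 CPM with BF BSHhigh. All 8 non-tumor libraries were above all 8 libraries of 2 weeks, with replicate 4 of the BF BSHlow non-tumor tissues closest to them. Tumors had 70.3, 20.6, 32.6 and 45.5 CPM with BF BSHlow and 80, 53.6 and 50 CPM with BF BSHhigh. Tumors overlapped the non-tumor tissues with BF BSHlow and lay above them with BF BSHhigh. The order of the means was 2 weeks (4.86 ± 1.63 CPM with BF BSHlow and 4.97 ± 2.36 with BF BSHhigh, SD, n = 4 each), non-tumor (33.2 ± 15.1 and 36.1 ± 6.82, n = 4 each) and tumor (42.2 ± 21.3, n = 4, and 61.2 ± 16.4, n = 3). In both arms the first step passed the test and the second did not.

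**Figure D1:**
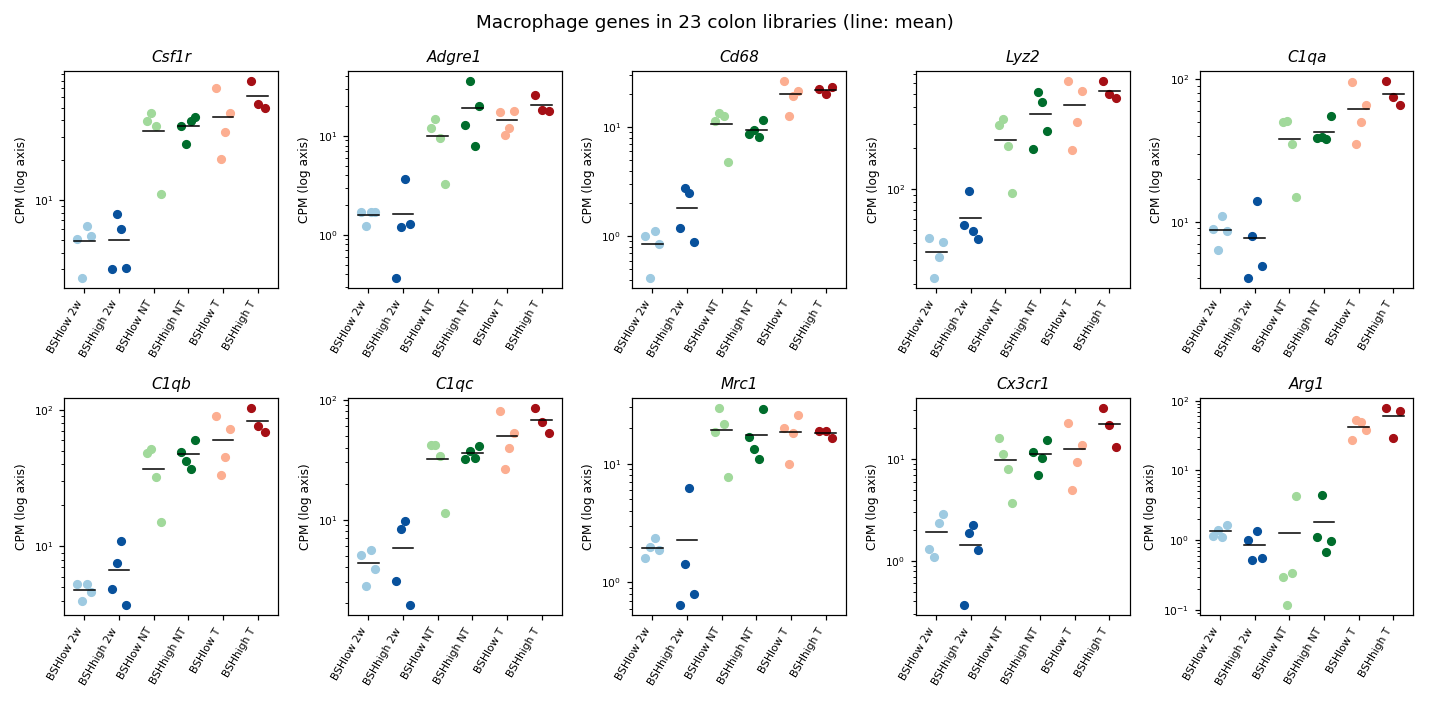
CPM (log axis) of the 10 macrophage genes in 23 libraries, with 1 point per library and a line at the mean of each group (2 weeks, non-tumor and tumor, each with BF BSHlow and BF BSHhigh). All genes but Arg1 step up between 2 weeks and the non-tumor tissues, and Arg1 steps up between the non-tumor tissues and the tumors.

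Non-tumor tissues at 12 weeks were compared with normal colon at 2 weeks in each arm, which asks how these genes stood once tumors had formed elsewhere in the colon. With BF BSHlow 9 of the 10 genes were called higher, where 17.0% of 15532 genes were, and with BF BSHhigh 9 of 10, where 16.8% were. Arg1 was the exception in both arms. In the 9 genes the groups did not overlap, as in 21.6% and 24.1% of all genes in this direction. The median of the 10 was 2.75 and 2.73, beside 0.00 and 0.03 over all genes. In bulk tissue, more cells of a type and more RNA per cell cannot be told apart. The early samples are normal colon and the late ones come from older mice and from colons with tumors. Time, age, tumor burden and sampling site therefore cannot be told apart either.

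The surface receptors are given first, with BF BSHlow before BF BSHhigh. Csf1r rose by 2.76 (SE 0.40, adjusted p = 5.74e-05) and 2.88 (SE 0.40, adjusted p = 3.97e-05). Adgre1, which encodes the macrophage surface protein F4/80, was 0.365 to 3.67 CPM in the 8 libraries of 2 weeks and 3.3 to 36.2 CPM in the 8 non-tumor libraries, and it rose by 2.63 (SE 0.59) and 3.56 (SE 0.59). Mrc1, the mannose receptor CD206, was 0.639 to 6.22 CPM at 2 weeks and 7.71 to 29.5 CPM in non-tumor tissues, and it rose by 3.30 (SE 0.59) and 2.93 (SE 0.58). Cx3cr1, the receptor for fractalkine, rose by 2.34 (SE 0.48) and 2.94 (SE 0.50). Its locus overlaps 9 other annotated genes, and whether the counting used strand is not given in the sources used here.

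C1qa, C1qb and C1qc encode the chains of C1q, which starts the classical complement pathway, and lie side by side on the minus strand of chromosome 4 (C1qb 136880129 to 136886187, C1qc 136889804 to 136893065 and C1qa 136895917 to 136898803, GRCm38). With BF BSHlow they rose by 2.11 (SE 0.38), 2.92 (SE 0.36) and 2.89 (SE 0.45) for C1qa, C1qb and C1qc. With BF BSHhigh the values were 2.49 (SE 0.38), 2.82 (SE 0.35) and 2.64 (SE 0.44). In each chain the groups did not overlap in either arm.

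Cd68, a glycoprotein of lysosomes and endosomes, went from 1.0, 0.414, 1.13 and 0.858 CPM to 11.3, 13.5, 12.7 and 4.79 CPM with BF BSHlow. With BF BSHhigh it went from 1.19, 2.78, 2.47 and 0.881 CPM to 8.57, 9.43, 8.16 and 11.7 CPM. The groups did not overlap in either arm, and Cd68 rose by 3.62 (SE 0.41, adjusted p = 6.31e-06) with BF BSHlow and by 2.38 (SE 0.38, adjusted p = 0.000116) with BF BSHhigh. The difference between the arms was -1.23 (SE 0.54) by the interaction term of edgeR, with an adjusted p of 0.645, and did not pass.

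Lyz2, the lysozyme of myeloid cells, rose by 2.74 (SE 0.40) and 2.58 (SE 0.39). It was the most abundant of the 10 per length, at 26.2 ± 7.4 CPM per kb (SD, n = 4) at 2 weeks and 176 ± 79.9 CPM per kb in non-tumor tissues with BF BSHlow. In those non-tumor tissues C1qa (36.3 ± 16.3 CPM per kb) and C1qb (33.7 ± 15.4 CPM per kb) followed and did not differ beyond their spread. Mrc1 (3.03 ± 1.42 CPM per kb) and Cx3cr1 (2.16 ± 1.15 CPM per kb) were among the lowest there, as was Arg1 (0.571 ± 0.918 CPM per kb). Of 1267 windows of 50 bases in Lyz2 transcripts, 195 (15.4%) also occur in its paralog Lyz1, and Lyz2 counts were not whole in 20 of 23 libraries, so part of its reads was divided between the pair. Lyz1, a Paneth cell lysozyme, rose as well (2.25, SE 0.46, and 1.39, SE 0.43).

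Arg1 did not follow the other 9. At 2 weeks it was 1.16, 1.41, 1.13 and 1.65 CPM with BF BSHlow and 1.0, 0.526, 1.35 and 0.561 CPM with BF BSHhigh. In non-tumor tissues it was 0.299, 0.116, 0.339 and 4.34 CPM with BF BSHlow and 1.11, 4.47, 0.675 and 0.965 CPM with BF BSHhigh. In each non-tumor group 1 library stood above the rest, and the other 3 BF BSHlow libraries were below all 4 of 2 weeks. The log2 fold change was -0.07 (SE 0.85, adjusted p = 0.956) with BF BSHlow and 1.09 (SE 0.87, adjusted p = 0.315) with BF BSHhigh. Without replicate 4 of the BF BSHlow non-tumor tissues it was -2.41 (edgeR adjusted p = 0.0108), which made Arg1 called lower there, as 8.06% of all genes were with all libraries, and without replicate 2 of the BF BSHhigh non-tumor tissues it was 0.11 with BF BSHhigh.

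Of 20 other macrophage genes 19 were tested between the times, and 15 were called higher and 1 lower in each arm. Folr2, a folate receptor of resident macrophages, rose by 5.96 (SE 0.85) and 5.14 (SE 0.87). Cd163, a scavenger receptor for haemoglobin, rose by 3.85 (SE 0.77) and 2.59 (SE 0.73), and the sialic acid receptor Siglec1 by 3.35 (SE 0.92) and 4.74 (SE 0.99). Mertk, a receptor for dying cells, fell by 1.25 and 1.15, where 8.06% and 7.56% of all genes were called lower. With BF BSHhigh it fell short of the fold limit under scaling by library size (-0.86).

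Of 11 tested growth factors, their receptors and myeloid transcription factors, 5 were called higher and 2 lower with BF BSHlow, and 4 and 1 with BF BSHhigh. Both ligands of CSF1R rose, Csf1 by 2.35 (SE 0.39) and 2.34 (SE 0.39) and Il34 by 2.54 (SE 0.30) and 2.16 (SE 0.29). Spi1, which encodes PU.1, rose by 2.10 (SE 0.52) and 2.67 (SE 0.52), and the transcription factor Maf fell by 1.54 and 1.96. Csf2ra, a subunit of the receptor for GM-CSF, was lower with BF BSHlow just past the fold limit (adjusted p = 9.74e-05 in edgeR), lost that call under 8 of 24 alternatives, and had -0.89 (SE 0.15, adjusted p = 0.00026) with BF BSHhigh. Of 8 tested monocyte and recruitment genes 6 were called higher in each arm, among them F13a1, a coagulation factor subunit of monocytes (4.46, SE 0.77, and 4.13, SE 0.77), Ccr2, the receptor for CCL2 (2.73, SE 0.56, and 2.89, SE 0.55), and Ly6c2 (3.20, SE 0.64, and 2.25, SE 0.60).

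Of 6 genes of arginine use 2 and 3 were called higher, among them Nos2, which makes nitric oxide from arginine (3.71, SE 0.46, and 3.58, SE 0.40), and Ass1, which takes part in making arginine (2.12, SE 0.20, and 2.29, SE 0.20). Of 5 tested genes linked to alternative activation 3 were called higher in each arm. They included Clec10a, a lectin of macrophages and dendritic cells (4.33, SE 0.64, and 3.99, SE 0.62), and Retnla, a protein secreted by alternatively activated mouse macrophages (4.83, SE 1.05, and 3.35, SE 1.11). With BF BSHhigh the adjusted p of Retnla was 0.0526 or 0.0508 without replicate 1 or 2 of the colon at 2 weeks and 0.104 in limma-voom.

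Markers of other cells of the gut wall moved as well. Smooth muscle markers were called higher in 8 of 8 in each arm, with a summed level of 8.39 to 216 CPM at 2 weeks and 1590 to 8920 CPM in non-tumor tissues. Fibroblast markers were called higher in 7 of 7 in each arm (summed 53.9 to 255 and 339 to 3440 CPM), endothelial markers in 4 and 6 of 6, and nerve and glia markers in 6 and 7 of 7. Of 8 epithelial markers none was higher and Krt20 was lower in each arm (-1.51 and -1.47). Ptprc, the leukocyte antigen CD45, had 1.08 (SE 0.46, adjusted p = 0.0629) and 0.63 (SE 0.45, adjusted p = 0.264). Among other leukocytes, B cell markers were called higher in 6 and 3 of 6 (median 3.44 and 2.21), dendritic cell markers in 5 and 7 of 8, neutrophil markers in 3 and 5 of 5 tested, and mast cell markers in 2 and 3 of 6. The mast cell marker Mcpt1 was called lower in each arm, and the dendritic cell marker Itgae was called lower with BF BSHhigh. T cell markers were called higher in 2 and 1 of 8 and lower in 1 and 4, among the latter Cd8a (-2.30, SE 0.57, and -3.07, SE 0.57). The part of these tissue layers and leukocytes in the rise of the macrophage genes was not tested.

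**Figure D2:**
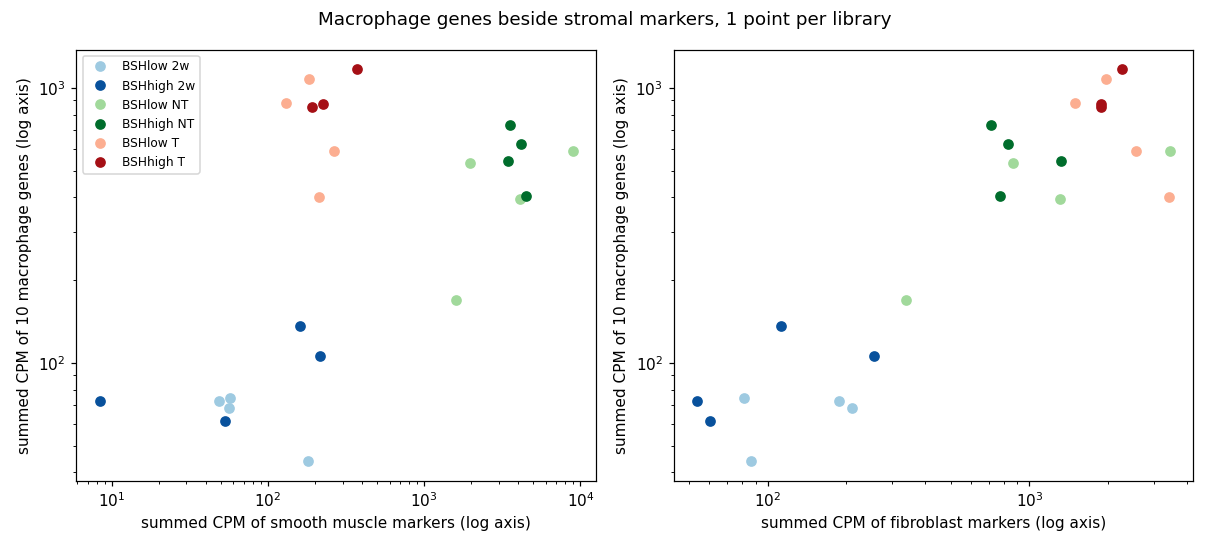
Summed CPM of the 10 macrophage genes against summed CPM of smooth muscle markers and of fibroblast markers (log axes), with 1 point per library, by group. Smooth muscle markers are 1590 to 8920 CPM in non-tumor tissues and 130 to 371 CPM in tumors, while the macrophage genes sum to 170 to 733 and 400 to 1170 CPM.

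Tumors were compared with non-tumor tissues of the same arm and time. Arg1 was the 1 gene of the 10 called with BF BSHlow, where 16.7% of 16454 genes were called higher, and Arg1 and Cd68 were the 2 called with BF BSHhigh, where 14.6% were. The median of the 10 was 0.69 and 0.84, beside 0.04 over all genes in each arm.

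Arg1 was 27.1, 53.4, 49.7 and 38 CPM in the BF BSHlow tumors and 78.9, 29.1 and 71 CPM in the BF BSHhigh tumors. All 7 were above the highest of the 8 non-tumor libraries, at 4.47 CPM. The log2 fold change was 5.02 (SE 0.79, adjusted p = 7.25e-05) with BF BSHlow and 5.02 (SE 0.79, adjusted p = 0.000111) with BF BSHhigh in edgeR. Without replicate 4 of the BF BSHlow non-tumor tissues it was 7.41 with BF BSHlow, and without replicate 2 of the BF BSHhigh non-tumor tissues it was 6.01 with BF BSHhigh. Per length, Arg1 was 18.9 ± 5.37 CPM per kb (SD, n = 4) in BF BSHlow and 26.8 ± 12 (n = 3) in BF BSHhigh tumors, above Csf1r there (7.32 ± 3.69 and 10.6 ± 2.83). In non-tumor tissues Arg1 was below Csf1r, at 0.571 ± 0.918 and 0.81 ± 0.801 CPM per kb against 5.75 ± 2.62 and 6.26 ± 1.18 (n = 4 each).

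Cd68 was 26.6, 12.5, 19.2 and 21.4 CPM in the BF BSHlow tumors and 22.2, 20.1 and 23.2 CPM in the BF BSHhigh tumors. The BF BSHhigh tumors lay above all their non-tumor libraries (8.16 to 11.7 CPM), and the BF BSHlow tumors overlapped theirs (4.79 to 13.5 CPM). The log2 fold change was 0.93 (SE 0.27, adjusted p = 0.00816) with BF BSHlow, past the limit on p, as were 33.3% of all genes upward, and not on fold, and 1.20 (SE 0.29, adjusted p = 0.00311) with BF BSHhigh in edgeR. Single libraries decided some calls. With BF BSHlow, leaving out tumor replicate 2 made 3 genes called, with Cd68 at 1.08 and Lyz2 at 1.09. Leaving out non-tumor replicate 2 or 3 made 2 called, with Cd68 at 1.06 or 1.04. With BF BSHhigh, leaving out non-tumor replicate 4 made 3 called, with C1qa at 1.03.

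The other 8 genes did not pass in either arm. C1qa was 96.1, 35.3, 50.3 and 66.4 CPM in BF BSHlow tumors and 97.8, 74.7 and 65.5 CPM in BF BSHhigh tumors, beside 14.8 to 50.7 and 38.2 to 55.3 CPM where no tumor was. It had log2 fold changes of 0.74 (SE 0.34, adjusted p = 0.0711) and 0.88 (SE 0.36, adjusted p = 0.0518) in edgeR. C1qb had 0.74 (SE 0.35) and 0.80 (SE 0.37), and C1qc had 0.65 (SE 0.36) and 0.92 (SE 0.38). In all 3 chains the BF BSHhigh tumors lay above their non-tumor tissues and the BF BSHlow tumors overlapped theirs. Csf1r had 0.38 (SE 0.39) and 0.75 (SE 0.41), Cx3cr1 had 0.41 (SE 0.47) and 0.98 (SE 0.50), Lyz2 had 0.87 (SE 0.41) and 0.57 (SE 0.44), and Adgre1 had 0.55 (SE 0.44) and 0.08 (SE 0.47). Mrc1 was closest to no difference, with -0.05 (SE 0.37) and 0.05 (SE 0.40). With BF BSHhigh 6 of the 10 genes did not overlap between the tissues (Csf1r, Cd68, C1qa, C1qb, C1qc and Arg1), beside 32.2% of all genes in that direction, and with BF BSHlow 1 did not (Arg1), beside 28.2%.

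The calls near the limit depended on the scaling. TMM factors over all 23 libraries, as used for the CPM values, were 1.17 to 1.36 in tumors and 0.951 to 1.02 in non-tumor tissues. The tests used factors computed anew within each fit, which are not given here. Scaling by library size alone moved the median of all genes by 0.33 with BF BSHlow and 0.30 with BF BSHhigh on the log2 scale, and under it 5 and 7 of the 10 genes were called, all higher. C1qa then had 1.07 and 1.18, and Mrc1, which changed sign with BF BSHlow, 0.27 in that arm.

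**Figure D3:**
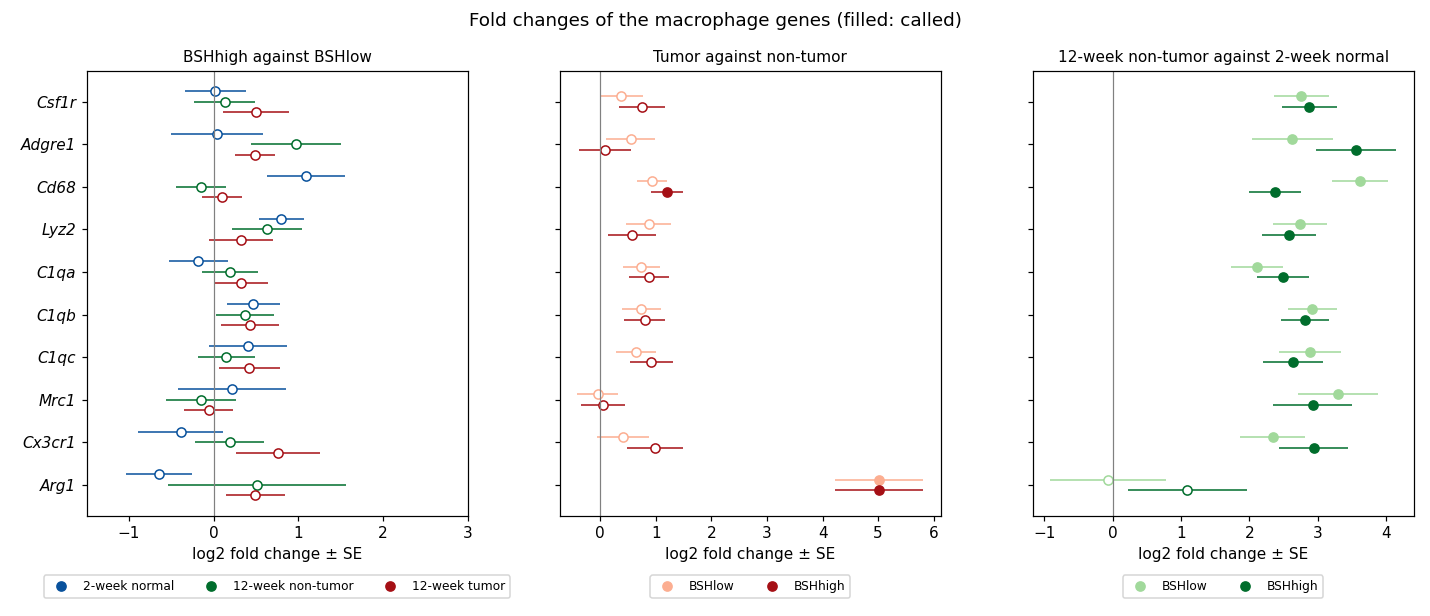
Log2 fold changes with SE of the 10 macrophage genes between strains, between tumors and non-tumor tissues, and between 12 and 2 weeks, with filled points for genes called (adjusted p below 0.05 and absolute log2 fold change above 1). None is filled between strains, Arg1 in both arms and Cd68 with BF BSHhigh are filled for tumors, and all but Arg1 are filled between the times.

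Within a library, the levels were also set against Csf1r as log2 ratios of CPM. The mean ratio of C1qb was 0.05 to 0.54 over the 6 groups, and that of C1qc -0.13 to 0.26. From non-tumor tissues to tumors the mean of Mrc1 went from -0.75 to -1.13 with BF BSHlow and from -1.13 to -1.73 with BF BSHhigh. The mean of Cd68 went from -1.56 to -0.99 and from -1.91 to -1.45. That of Arg1 went from -5.44 to 0.09 and from -4.58 to -0.13. With BF BSHhigh the Arg1 ratios of tumors and non-tumor tissues did not overlap, and with BF BSHlow they did, since replicate 4 of the non-tumor tissues was at -1.34 and replicate 1 of the tumors at -1.37.

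**Figure D4:**
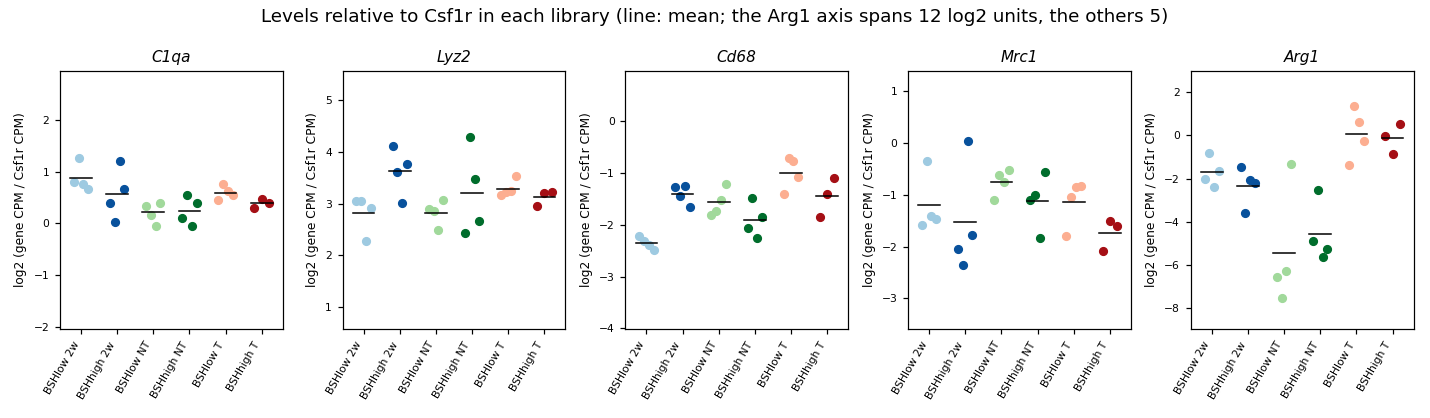
Log2 ratio to Csf1r, in CPM, of C1qa, Lyz2, Cd68, Mrc1 and Arg1 in each of 23 libraries, by group, with 1 point per library and a line at the group mean. The group means of C1qa run from 0.21 to 0.87, while the group means of Arg1 run from -5.44 to 0.09.

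Across the 23 libraries, which share groups and tissue makeup, the log2 CPM of Csf1r and the C1q genes had Pearson correlations of 0.98 to 0.99 with each other, and of 0.88 to 0.96 after group means were removed. Arg1 had 0.37 to 0.54 with the other 9, and -0.63 to -0.16 after group means were removed. Of 14385 genes searched over the 23 libraries, the pattern most like Csf1r was that of Sirpa, a myeloid receptor for CD47 (0.99), followed by Mpeg1 (0.99) and Ptafr (0.98). Sirpa was also among the nearest 3 of C1qa, C1qb, C1qc and Cx3cr1. The nearest of Cd68 was the antibody receptor Fcgr2b (0.99), of Lyz2 Cd84 (0.97), of Adgre1 Vsir (0.96) and of Mrc1 Pla2r1 (0.97). For Arg1 they were Prss22 (0.96), Cdca7l (0.96) and Onecut2 (0.95), none of them among the nearest of the other 9. Which cells held the Arg1 RNA was not tested.

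Other macrophage genes were called in both directions in tumors. Of 19 tested, 8 were called higher and 5 lower with BF BSHlow, and 5 and 6 with BF BSHhigh. Of all genes 19.5% and 14.8% were called lower, beside the 16.7% and 14.6% called higher. Among those called higher in both arms were Trem2, a lipid receptor (1.47, SE 0.45, and 2.47, SE 0.49), Msr1, a scavenger receptor (2.15, SE 0.35, and 1.12, SE 0.36), and Fcgr1, an antibody receptor (1.22, SE 0.48, and 1.78, SE 0.50). Gpnmb, a glycoprotein of lipid-laden macrophages, was called higher with BF BSHlow (1.85, SE 0.55) and had 1.06 (SE 0.57, adjusted p = 0.129) with BF BSHhigh. Cd163 was called lower in both arms (-4.35, SE 0.79, and -4.14, SE 0.93), at 0 to 0.822 CPM in tumors and 1.86 to 9.26 CPM in non-tumor tissues, which did not overlap. Folr2 was lower too (-3.00, SE 0.61, and -2.46, SE 0.69).

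**Figure D5:**
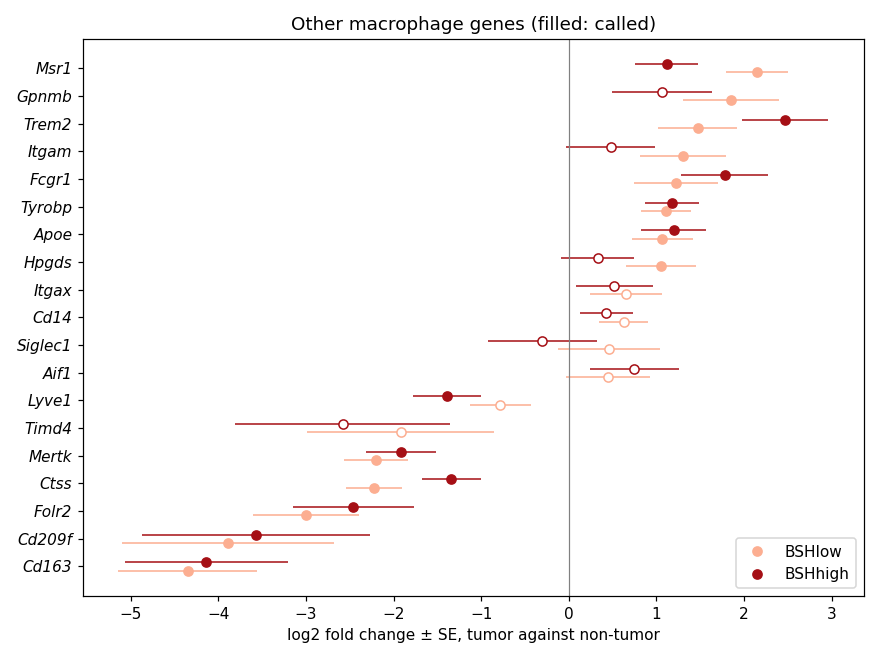
Log2 fold change with SE between tumors and non-tumor tissues of further macrophage genes, with BF BSHlow and BF BSHhigh, and filled points for genes called. Msr1, Trem2 and Fcgr1 are called higher and Cd163 and Folr2 lower in both arms.

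Of 7 tested genes linked to alternative activation, 2 were called higher in each arm, and 2 were lower with BF BSHlow and 1 with BF BSHhigh. Retnla had 0 counts in all 7 tumors, beside 4 to 148 counts in the BF BSHlow and 10 to 26 in the BF BSHhigh non-tumor libraries. Against a floor of 3 counts over the tumors of an arm it was at least 105-fold lower with BF BSHlow and at least 22.6-fold lower with BF BSHhigh. Replicate 3 of the BF BSHlow non-tumor tissues held 148 of the 233 counts of its group, and without it the limit was 50.7-fold. Clec10a was lower with BF BSHlow (-2.43, SE 0.67) and had -1.58 (SE 0.71, adjusted p = 0.072) with BF BSHhigh. Tgfb1 (1.73, SE 0.27, and 1.34, SE 0.28) and the interleukin receptor Il4ra were the 2 called higher. Arg1 and Retnla, both used as markers of that state, thus differed in opposite directions.

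Of 6 genes of arginine use, 1 was called higher with BF BSHlow and 2 with BF BSHhigh. Slc7a2, which carries arginine into cells, was higher in both arms (1.75, SE 0.35, and 1.82, SE 0.36). Nos2 was higher with BF BSHhigh (1.42, SE 0.34) and had 0.62 (SE 0.34, adjusted p = 0.118) with BF BSHlow. Arg2, the mitochondrial arginase, had -1.33 (SE 0.81) and 0.04 (SE 0.86) and was not called.

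Of the 12 growth factors, receptors and transcription factors, 5 were called higher in each arm and 3 and 1 lower. Csf1 was 36.6 to 53.9 CPM in tumors and 7.71 to 21.3 CPM in non-tumor tissues and rose without overlap (1.44, SE 0.22, and 1.77, SE 0.23). Its fellow ligand Il34, named here after its values were seen, was lower with BF BSHlow (-1.24, SE 0.30, adjusted p = 0.00252) and had -0.97 (SE 0.33, adjusted p = 0.0216) with BF BSHhigh, past the limit on p alone. Runx1 was higher (1.70, SE 0.15, and 1.42, SE 0.16) and Cebpa lower (-1.26, SE 0.17, and -1.05, SE 0.18). Cebpa fell short of the fold limit under scaling by library size (-0.93 and -0.75). With BF BSHhigh it also did so without tumor b (-0.98), tumor c (-0.96) or non-tumor replicate 2. Irf8, a transcription factor of monocytes and dendritic cells, was lower with BF BSHlow (-1.46, SE 0.23) and had -0.88 (SE 0.25, adjusted p = 0.00809) with BF BSHhigh.

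Of 10 monocyte and recruitment genes, 2 were higher and 5 lower with BF BSHlow, and 3 and 3 with BF BSHhigh. The chemokines Ccl2 (2.00, SE 0.53, and 3.22, SE 0.57) and Ccl7 (1.37, SE 0.44, and 2.76, SE 0.47), which draw in monocytes, were higher. The monocyte antigen Ly6c2, one of a family of near-identical copies and so uncertain, was lower (-4.28, SE 0.63, and -1.75, SE 0.60). With BF BSHhigh its adjusted p was 0.0525 without non-tumor replicate 2, 0.0861 without tumor b, 0.0769 without tumor c and 0.0508 under scaling by library size. Plac8 (-2.50, SE 0.27, and -1.42, SE 0.29) and Cx3cl1, which encodes fractalkine, the ligand of CX3CR1 (-2.06, SE 0.14, and -1.43, SE 0.15), were lower too.

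Markers of other cells differed beside these. Smooth muscle markers were lower in 8 of 8 in each arm and B cell markers in 6 of 6. Neutrophil markers were higher in 7 and 4 of 8, among them Mmp9 (5.88, SE 0.75, and 5.93, SE 0.77), and summed to 171 to 672 CPM in tumors and 147 to 387 CPM in non-tumor tissues. The remaining called one, the neutrophil surface antigen Ly6g, was lower without overlap in each arm (-4.68, SE 0.29, and -2.23, SE 0.28). Squamous epithelium markers were higher in 3 of 3 tested in each arm and summed to 24.4 to 172 CPM in tumors and 1.36 to 3.31 CPM in non-tumor tissues. Ptprc was lower with BF BSHlow (-1.24, SE 0.49, adjusted p = 0.0371) and had -0.77 (SE 0.52, adjusted p = 0.229) with BF BSHhigh, and Lyz1, which shares reads with Lyz2, was higher (3.13, SE 0.45, and 3.94, SE 0.47). The part of these cells in the levels of Arg1 and Lyz2 was not tested.

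BF BSHhigh was compared with BF BSHlow to ask whether the BSH activity of the strain goes with these genes. In tumors none of the 10 was called, where 0.476% of 15325 genes were. Values ran from -0.06 (Mrc1, SE 0.29) to 0.76 (Cx3cr1, SE 0.50), with a median of 0.42 beside -0.03 for all genes. Adgre1 was 17.5, 10.2, 12 and 17.7 CPM with BF BSHlow and 25.7, 18.1 and 18 CPM with BF BSHhigh. It was the 1 gene whose groups did not overlap (0.49, SE 0.24, adjusted p = 0.466 in edgeR), beside 8.30% of all genes in that direction. Arg1 had 0.49 (SE 0.35), Csf1r 0.50 (SE 0.39) and Cd68 0.10 (SE 0.24). None of the 10 had an unadjusted p below 0.05, beside 12.7% of all genes, and DESeq2 and limma-voom called none.

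Of the other lists, Nos2 was called higher in BF BSHhigh tumors (2.60, SE 0.26, adjusted p = 0.029 in edgeR), at 76.8 to 164 CPM against 15.9 to 22.6 CPM. Leaving out any of 5 of the 7 tumors (each BF BSHlow tumor, or BF BSHhigh tumor b) put its adjusted p at 0.0599 to 0.104. Among the 6 arginine use genes, Nos2 included, the highest strain difference was 1.82 in non-tumor tissues and 1.94 at 2 weeks, with none called. The tissue and time differences of Nos2 given above place it at or near these highest values. Its higher level with BF BSHhigh was thus not particular to tumors, though it was called only there. No gene was called among other macrophage genes, growth factors and transcription factors, complement genes, or monocyte and recruitment genes. The last had a median of 1.39, with 8 of 10 genes higher without overlap, beside -0.03 and 8.30% for all genes. Complement genes had a median of 0.87, with 6 of 11 higher without overlap. The median was 0.30 for other macrophage genes and 0.24 for growth factors and transcription factors. Some marker lists of other cells were also above the median of all genes in BF BSHhigh tumors. They were at 1.97 for T cells (5 of 8 without overlap, none called), 2.08 for the 3 tested B cell markers (1 without overlap, none called) and 3.44 for Paneth and secretory cells (7 of 7 without overlap, 2 called). Their part in the levels of the monocyte and complement genes was not tested.

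In non-tumor tissues none of the 10 genes was called, where 0% of 14933 were. Adgre1 had the highest value (0.97, SE 0.53, adjusted p = 0.626 in edgeR), at 12, 14.8, 9.57 and 3.3 CPM with BF BSHlow and 13, 36.2, 7.91 and 20.2 CPM with BF BSHhigh, which overlapped. Cd68 (-0.15, SE 0.30) and Mrc1 (-0.15, SE 0.41) had the lowest. The median was 0.19 beside -0.01 for all genes. None of the 10 had an unadjusted p below 0.05, beside 9.22% of all genes, and DESeq2 and limma-voom called none.

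After 2 weeks none of the 10 genes was called, where 0.00727% of 13752 were. Lyz2 was 43.4, 22.1, 31.6 and 41.1 CPM with BF BSHlow and 54, 96.6, 49.4 and 43.1 CPM with BF BSHhigh (0.80, SE 0.27, unadjusted p = 0.0128 and adjusted p = 0.66 in edgeR). Cd68, with the values given above, had 1.09 (SE 0.46, unadjusted p = 0.0377 and adjusted p = 0.718 in edgeR). The groups overlapped in both genes. These were the 2 of the 10 with an unadjusted p below 0.05, beside 6.8% of all genes, and DESeq2 and limma-voom called none.

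Interaction terms of edgeR tested whether the difference between strains changed with the tissue or with time. None of the 10 was called for tumors against non-tumor tissues, where 0.978% of 16454 genes were, and the smallest adjusted p was 0.894 (Cx3cr1). For 12 against 2 weeks none was called, where 0% of 15532 were, and the smallest adjusted p was 0.645 (Cd68). At an unadjusted p below 0.05 there were 0 of the 10 for the tissues and 1 for the times, and DESeq2 and limma-voom called none in either. Of the other lists of macrophage biology, 1 gene was called for the tissues, the complement factor Cfb (1.31, SE 0.27, adjusted p = 0.0329 in edgeR).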

How the data were processed

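Bulk mRNA-seq of mouse colon was analysed in 23 libraries of 6 groups. Per the labels and the study's methods, adapters were removed with Cutadapt and STAR served for alignment (mm10). The authors deposited gene-level expected counts from RSEM without normalization. The annotation release and the strand setting are not given in the sources used here. Of the deposited expected counts 4.24% were not whole, and they were rounded. A gene with text in 1 cell was left out. The header names no BF BSHhigh tumor and repeats names of BF BSHlow tumors instead. The repeated columns were taken as the BF BSHhigh tumors, as a group without replicate numbers, since the study's own list of counts gives their values as tumors of that strain, and every result on BF BSHhigh tumors rests on this. Replicates of a group differed beyond sampling noise (chi-square per degree of freedom 16.6 to 126 in 33 pairs).

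After the filterByExpr filter and TMM scaling, edgeR 4.0.16 (R 4.3.3) was run as a quasi-likelihood F-test. Strain comparisons used the libraries of the 2 groups compared, tumor comparisons and their interaction the 15 libraries of 12 weeks, and time comparisons the 16 libraries without tumors. The SE is the log2 fold change divided by the root of the F statistic. DESeq2 1.42.0, limma-voom (limma 3.58.1), other scalings and filters, a replicate block, 1 fit of all libraries and leaving out each library were tried as alternatives. The scripts were tested on simulated counts. Lengths and overlaps came from an annotation of GRCm38 that held all 55449 gene IDs, and 26837 genes had no count in any library.

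The 10 genes and all lists of other genes were chosen with earlier results of these data known. From each list, up to 2 higher and 2 lower called genes with the largest change and a mean of at least 1 CPM were named in a comparison, and a gene named in 1 arm is given in both. Some genes that this rule takes are not reported here, and of the marker lists of other cells, which are given by counts, fewer genes are named than the rule takes. The 3 genes most like each of the 10 by Pearson correlation were also taken, and Ptprc, Epcam, Des, Lyz1, Arg2 and Apc served as reference genes. Numbers of replicates were not used to pair libraries across groups in the main fits.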

Additional observations from a re-analysis of the deposited data

Results flagged for a closer look

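In 5 of the 50 sets of 4 libraries examined, 1 library lay far from the other 3, by Dixon's ratio of gap to range past its usual critical value, which chance alone gives in about 1 of 20 sets. Arg1 was 4.34 CPM in replicate 4 of the BF BSHlow non-tumor tissues, beside 0.116 to 0.339 CPM in the others. It was 4.47 CPM in replicate 2 of the BF BSHhigh non-tumor tissues, beside 0.675 to 1.11 CPM. C1qa was 55.3 CPM in replicate 4 of the BF BSHhigh non-tumor tissues, beside 38.2 to 39.1 CPM. Mrc1 was 6.22 CPM in replicate 3 of the BF BSHhigh colon at 2 weeks, beside 0.639 to 1.43 CPM. Adgre1 was 1.24 CPM in replicate 2 of the BF BSHlow colon at 2 weeks, beside 1.70 to 1.72 CPM.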

How the results depend on the processing

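The number of the 10 genes called between strains and for the interactions was 0 under every alternative run. For tumors with BF BSHlow it was 1, and it was 2 at any fold, 5 under library size alone and 1 to 3 without single libraries. With BF BSHhigh it was 2, and 7 under library size alone and 2 to 3 without single libraries. Between the times it was 9 to 10 with BF BSHlow and 9 with BF BSHhigh without single libraries. Libraries of the same replicate number had correlations of deviations of -0.22 to 0.32 between groups, which cannot show whether tissues came from the same mice. The fit with a replicate block changed no count. It gave 0 genes called for non-tumor strains, 2-week strains and the interaction with time, and 9 in each time comparison. For BF BSHlow tumors, with BF BSHlow libraries only, it gave 1, and these libraries also gave 1 without the block. Among other genes named, the block in BF BSHlow tumors left Gpnmb at 1.53 (adjusted p = 0.0523) and C4b at -1.40 (0.0826), each called by edgeR without it. The block was not fitted for BF BSHhigh tumors, which carry no numbers. Of 2735 repeated values of 122 gene results, 2670 kept direction and side of the threshold, 29 lost a call, 15 gained one and 21 changed sign. The changes of sign were as follows. Mrc1 was 0.02 between strains in tumors by limma-voom, 0.27 in BF BSHlow tumors by library size, and -0.01 in BF BSHhigh tumors by DESeq2 and by RLE size factors. Arg1 was 0.11 between the times with BF BSHlow by library size. Without single libraries, Cd68 (-0.06 to 0.29) and Mrc1 (-0.26 to 0.14) changed sign between strains in tumors. So did Csf1r (-0.01 to 0.58), Cx3cr1 (-0.05 to 0.75) and Mrc1 (-0.31 to 0.22) in BF BSHlow tumors, Adgre1 (-0.18 to 0.58) and Mrc1 (-0.13 to 0.40) in BF BSHhigh tumors, and Arg1 (-2.41 to 0.32) between the times with BF BSHlow. Over all alternatives Arg1 was 4.60 to 7.41 in BF BSHlow and 4.73 to 6.01 in BF BSHhigh tumors. The causes were not tested. At 4 against 3 or 4 libraries, differences between strains well beyond their SEs also went uncalled. In tumors Lyz1 had 0.89 (SE 0.22, adjusted p = 0.123 in edgeR). At 2 weeks Lyz2 had 0.80 (SE 0.27, adjusted p = 0.66 in edgeR). The lack of calls among the 10 genes therefore does not show that the strains were alike.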

Other observations

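Genes of organelles and proteins that macrophages share with other cells differed in tumors as well. Of 10 lysosome genes, 2 were called higher in each arm. They were the membrane protein Lamp2 (2.33, SE 0.13, and 1.95, SE 0.13, BF BSHlow first) and the protease Ctsd (1.31, SE 0.15, and 1.35, SE 0.16). Of 11 complement genes beside C1q, 9 were called higher between the times in each arm, among them C3 (3.71, SE 0.59, and 3.99, SE 0.59) and C4b (3.71, SE 0.54, and 3.81, SE 0.53). In tumors 3 were called higher in each arm, among them the receptors C5ar1 (1.88, SE 0.35, and 1.89, SE 0.37) and C3ar1 (1.12, SE 0.32, and 1.40, SE 0.34), and 2 were lower with BF BSHlow, Cfb (-2.06, SE 0.19) and C4b (-1.36, SE 0.41). 

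Other leukocyte and secretory markers are given as counts for tumors, BF BSHlow first. Dendritic cell markers were lower in 3 and 0 of 8, and none was higher. T cell markers were higher in 1 and 2 of 8 and lower in 2 and 0. Mast cell markers were higher in 3 and 1 of 6 and lower in 2 and 1. Paneth and secretory cell markers were higher in 2 and lower in 5 of 7 in each arm. Zg16 (7.78, SE 1.11) and Chga (2.38, SE 0.35) of them, besides Ly6g of the neutrophil markers (2.85, SE 0.35), were higher in BF BSHhigh than in BF BSHlow tumors.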
